A study of Homo sapiens with 12 samples.

Results

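The 38 genes described here are interferon-stimulated genes that belong to none of the IFIT, IFITM, OAS, GBP, PARP, MX, STAT and IRF families. They were chosen by name, from ISG15 and its conjugation enzymes to single genes such as RSAD2, LAP3 and PNPT1. They are 38 of the 36315 genes that the transcript tables could be paired with, and all 38 were among the 21601 genes tested. The study asked what happens in microglia when EphB2, a receptor tyrosine kinase, binds ephrin-B1 on their surface and signals back into the cell that carries the ephrin. RNA was sequenced from HMC3, an immortalized human microglial cell line, in 4 groups of 3 libraries. In the EphB2 group, cells transfected with a negative control siRNA for 48 h were then given pre-clustered EphB2-Fc (the receptor fused to an antibody Fc part) at 2 ug/mL for 24 h. The EphB2 + ephrin-B1 siRNA group had the same EphB2-Fc after siRNA against ephrin-B1, and the ephrin-B1 siRNA group had that siRNA followed by Ctrl-Fc. The Ctrl group had the negative control siRNA and Ctrl-Fc. All 12 libraries thus come from cells of 1 line that were transfected with RNAiMAX, so no library shows untransfected cells, and the methods describe 3 biological replicates per group.

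Type I interferons bind the receptor pair IFNAR1 and IFNAR2, whose kinases JAK1 and TYK2 phosphorylate transcription factors of the STAT family. Together with IRF9 these form a complex that binds repeats of GAAA, the interferon-stimulated response element, in front of its target genes. The proteins made then edit, cut or sequester viral RNA, tag proteins with ISG15, alter nucleotide pools, act in nuclear bodies or on membranes, or restrain the response itself. Microglia, the resident macrophages of the brain, are among the cells that answer interferon in this way.

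Library totals ran from 13230689 to 25785591 estimated counts, with a median of 18694234, and the 38 genes took 0.259% to 0.777% of them. Of 12 markers of microglia and macrophages, 8 stayed under 1 TPM in all 12 libraries, among them AIF1, CX3CR1, P2RY12 and TYROBP, C1QB was at 0 in all, and the markers summed to 3.71 to 7.16 TPM. Of 10 mesenchymal and pericyte markers, 2 stayed under 1 TPM in all 12 libraries. The 10 summed to 1163 to 2159 TPM, with COL1A1 alone at 662 to 1203 TPM. The labelled cell type thus rests on the name of the line more than on these markers. The mesenchymal markers summed to 1163 to 1508 TPM in EphB2 + ephrin-B1 siRNA, 1195 to 1706 TPM in EphB2 and 1407 to 2159 TPM in ephrin-B1 siRNA, against 1579 to 1974 TPM in Ctrl, and their part in the results was not tested. EFNB1, which encodes ephrin-B1, had 6.56, 6.03 and 6.38 CPM in EphB2 + ephrin-B1 siRNA and 7.10, 6.60 and 8.70 CPM in ephrin-B1 siRNA, against 15.6, 18.8 and 18.4 CPM in EphB2 and 20.4, 17.5 and 19.3 CPM in Ctrl. The siRNA thus lowered its target in every library of both siRNA groups (ephrin-B1 siRNA vs Ctrl: log2 fold change -1.35 ± 0.13, edgeR adjusted p = 0.00124). CPM here are estimated counts scaled to library size with TMM, used to compare 1 gene between libraries, and TPM are also divided by transcript length, used to compare genes. A gene was called at an adjusted p under 0.05 in edgeR's quasi-likelihood test over all 21601 genes, and log2 fold changes are given ± SE from that fit, which takes the 3 libraries of a group as plain replicates. Libraries with the same replicate number also share an experiment number in their submitted names, so a blocked adjusted p, from the same test with the replicate number as a block, stands beside it where it changes the call.

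Promoter sequences are shown before the values because the members were chosen by name, and GAAA repeats in front of their start sites are a feature that the choice did not use. RefSeq start sites (GRCh38.p14) gave 51 promoter windows for 35 of the 38 members, each from 250 bases before to 50 bases after a start, and PHF11, TRIM22 and USP18 were not matched. The motif searched was GAAANNGAAA, on either strand, with overlapping matches counted. It was present in 23 of the 51 member windows (45.1%), against 1255 of all 35116 windows (3.57%), and in at least 1 window of 20 of the 35 members (57.1%), against 4.38% of 27305 genes. With 1 to 3 bases allowed between the GAAA copies, 32 member windows (62.7%) and 8.68% of all windows had a match. In the sequences shown, matches with 2 bases between are in capitals, and every run lies before the start site. ISG15 is shown as the member that names the conjugation system, PNPT1 as the only member called in EphB2 vs Ctrl, IFI44L as a member that differed widely between replicate numbers, IFI6 as the member with the highest mean TPM, LAP3, PLSCR1 and TRIM14 for members called in EphB2 + ephrin-B1 siRNA vs Ctrl, and DDX60 with DDX60L as neighbours.
ISG15 promoter (chr1:1013247-1013496, plus strand): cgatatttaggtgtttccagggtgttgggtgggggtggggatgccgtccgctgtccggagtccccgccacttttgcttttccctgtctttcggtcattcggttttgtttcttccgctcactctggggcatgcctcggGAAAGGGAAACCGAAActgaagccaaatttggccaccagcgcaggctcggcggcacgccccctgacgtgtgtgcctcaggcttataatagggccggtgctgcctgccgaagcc
PNPT1 promoter (chr2:55693845-55694094, minus strand): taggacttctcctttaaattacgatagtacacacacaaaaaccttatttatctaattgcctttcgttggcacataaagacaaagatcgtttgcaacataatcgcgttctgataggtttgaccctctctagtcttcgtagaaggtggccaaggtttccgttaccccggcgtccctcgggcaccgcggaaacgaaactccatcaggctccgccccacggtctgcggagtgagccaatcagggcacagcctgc
IFI44L promoter (chr1:78620340-78620419, plus strand): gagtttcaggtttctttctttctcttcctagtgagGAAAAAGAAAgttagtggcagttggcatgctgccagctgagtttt
IFI6 promoter (chr1:27672241-27672320, minus strand): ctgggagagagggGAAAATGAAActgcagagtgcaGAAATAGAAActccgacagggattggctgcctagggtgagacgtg
LAP3 promoter (chr4:17576980-17577059, plus strand): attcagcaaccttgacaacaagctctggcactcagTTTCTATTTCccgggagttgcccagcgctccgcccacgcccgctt
PLSCR1 promoter (chr3:146544642-146544721, minus strand): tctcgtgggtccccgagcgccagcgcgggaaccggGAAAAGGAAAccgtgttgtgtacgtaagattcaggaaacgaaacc
TRIM14 promoter (chr9:98119223-98119302, minus strand): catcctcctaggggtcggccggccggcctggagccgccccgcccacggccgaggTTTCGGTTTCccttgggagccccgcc
DDX60 promoter (chr4:168318761-168318840, minus strand): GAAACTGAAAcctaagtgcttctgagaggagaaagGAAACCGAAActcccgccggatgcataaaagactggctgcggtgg
DDX60L promoter (chr4:168480498-168480577, minus strand): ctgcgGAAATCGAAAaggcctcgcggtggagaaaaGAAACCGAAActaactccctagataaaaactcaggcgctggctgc

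The ISG15 window held overlapping matches that share a GAAA, IFI6, DDX60 and DDX60L each held 2 within the bases shown, and LAP3 and TRIM14 held theirs on the other strand, read here as TTTC. The PNPT1 window held no match with 2 bases between and 1 with a single base between. Over the 20 members with a match, the median log2 fold change of EphB2 vs Ctrl was 0.61 (range 0.29 to 1.09), and over the 15 matched members without one it was 0.58 (range -0.56 to 1.04). The 15 without a match include PNPT1, IFI16, SP100, IFI35 and XAF1. With 1 to 3 bases between, PNPT1, IFI16, IFI35 and XAF1 had a match and SP100 did not. At that spacing 27 of the 35 members had a match (77.1%), against 10.5% of genes. These are descriptions of the letters, and binding was not measured.

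Most members were transcribed in every group, including Ctrl. By mean TPM over the 12 libraries, 32 members were above 10 TPM, 4 were between 1 and 10 TPM and 2 were under 1 TPM. IFI6, which acts at the endoplasmic reticulum and mitochondria, had the highest level with a mean of 1074 TPM (range 257 to 1856 TPM). LGALS3BP, a secreted glycoprotein that binds galectins, followed with 797 TPM (range 374 to 1376 TPM), then ISG15 with 339.9 TPM (range 127 to 498 TPM). The ranges of these 3 genes overlap, so their order holds for the means only. At the low end were RSAD2 with 4.11 TPM, RTP4 with 0.739 TPM and CMPK2 with 0.119 TPM.

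Before any treatment is compared, the 12 libraries differ by replicate number, and for many members by more than between groups. At least 2-fold higher in replicate 1 than in replicate 2 were 8 of the 38 members in EphB2 + ephrin-B1 siRNA (3.45% of all genes tested), 11 in ephrin-B1 siRNA (3.24%), 10 in EphB2 (4.28%) and 18 in Ctrl (3.37%). No member was 2-fold lower in any group. The median member stood 0.59 on the log2 scale higher in replicate 1 than in replicate 2 in EphB2 and 0.92 in Ctrl, and 0.56 in EphB2 + ephrin-B1 siRNA and 0.74 in ephrin-B1 siRNA, while the median over all genes was between -0.01 and 0.00. Replicate 3 lay between replicates 1 and 2 in 130 of the 152 sets of 3 libraries (38 members in 4 groups), and in 50.4% to 53.4% of all genes. Among genes of any kind that were 2-fold apart, replicate 3 lay between in 88.6% to 92.9%, so this place of replicate 3 is shared with other genes that differ between the experiments. Libraries of 1 number share an experiment, so these ratios are given with no test.

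The members did not all share this spread. RSAD2, IFI44L and IFI27 had the largest ratios of replicate 1 over replicate 2, with medians over the 4 groups of 2.26, 2.23 and 1.99 on the log2 scale. TRIM21 and SHISA5 had the smallest, -0.35 and -0.17, and PNPT1 (-0.04) and LAP3 (-0.07) were near 0. Under 1.5-fold apart in all 4 groups were 8 members, against 66.4% of all genes, and 5 members were at least 2-fold higher in replicate 1 in all 4 groups, against 1.47%. Over the 20 members with the promoter motif the median ratio was 0.77 (range -0.35 to 2.26), and over the 15 without it 0.31 (range -0.05 to 1.16), ranges that overlap.

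**Figure D1:**
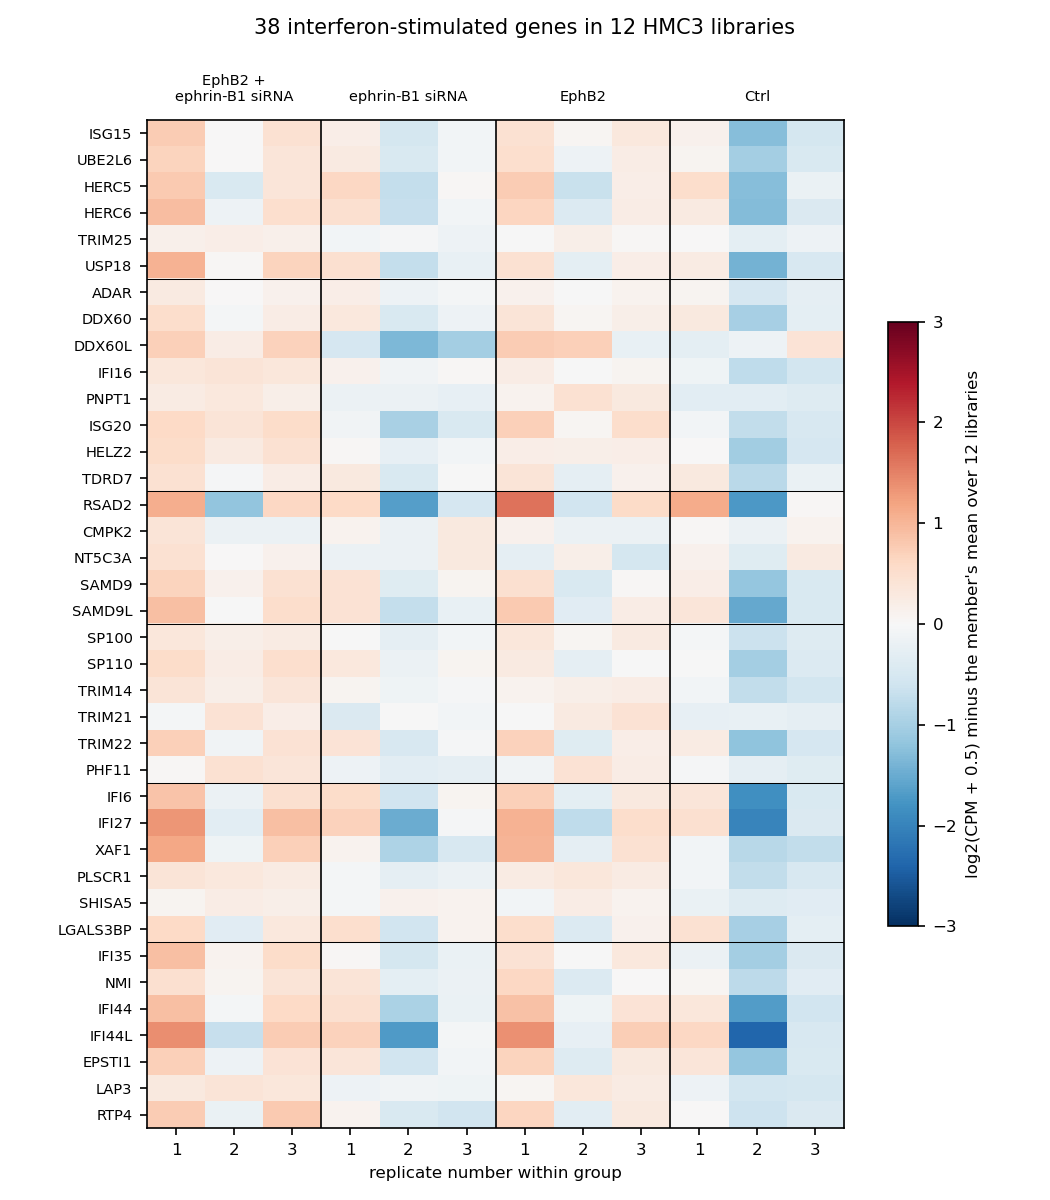
Level of each of the 38 members (rows, grouped by role) in each of the 12 libraries (columns, by group and replicate number), as log2(CPM + 0.5) minus the member's own mean. Replicate 1 is higher than replicate 2 for most members in every group, the Ctrl replicate 2 column is blue in nearly every row, and the rows of PNPT1, LAP3 and SHISA5 vary little by replicate number.

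The comparison of EphB2 with Ctrl asks what EphB2-Fc alone does. Most members were higher in EphB2: the log2 fold change was above 0 for 36 of the 38, against 51.4% of all genes, with a median of 0.58 (range -0.56 to 1.09), against 0.01 over all genes. In 33 members EphB2 was higher than Ctrl in all 3 same-numbered pairs of libraries (18.5% of all genes), and in 11 all 3 EphB2 libraries lay above all 3 Ctrl libraries (6.62% of all genes), while no member lay below in either count. PNPT1 was the 1 member that rose in edgeR at an adjusted p under 0.05, against 5 of 21601 genes (0.0231%). With the replicate number as a block 31 members rose and none fell, against 2.13% of all genes that rose, and with the block but without replicate 3 the count was 7 (SP100, IFI35, XAF1, IFI44L, PNPT1, HERC6 and UBE2L6), against 0.329%. The blocked fit takes replicate 3 as an experiment of its own, which its place between the others leaves in doubt. Every blocked value holds under that limit. In DESeq2, run without a block, 8 members were higher (LAP3, SP100, TRIM14, PNPT1, IFI16, SHISA5, ISG20 and PLSCR1), against 83 of 21601 genes. In the paragraphs by role, calls with or without the block are those of edgeR. In edgeR without the block, leaving out Ctrl replicate 1, the Ctrl library with the highest levels, let 4 members rise (LAP3, TRIM14, IFI16 and PLSCR1). The share of all genes was 0.0466%, and the median of the members was 0.85. Without Ctrl replicate 2, the lowest, no member rose, where 0 of 21402 genes were called, and the median of the members was 0.37. In these bulk libraries, more cells that respond and more RNA per responding cell cannot be told apart.

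The difference was not of 1 size in the 3 experiments. The median member was 0.33, 0.78 and 0.68 on the log2 scale higher in EphB2 than in Ctrl in replicates 1, 2 and 3, and the difference was larger in replicate 2 than in replicate 1 for 32 of the 38 members, against 51.1% of all genes. Replicate 2, where Ctrl was lowest for most members, thus had the larger differences, and the same Ctrl libraries enter both statements. Replicate 3 had a difference between those of replicates 1 and 2 for 30 members, against 37.5% of all genes.

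**Figure D2:**
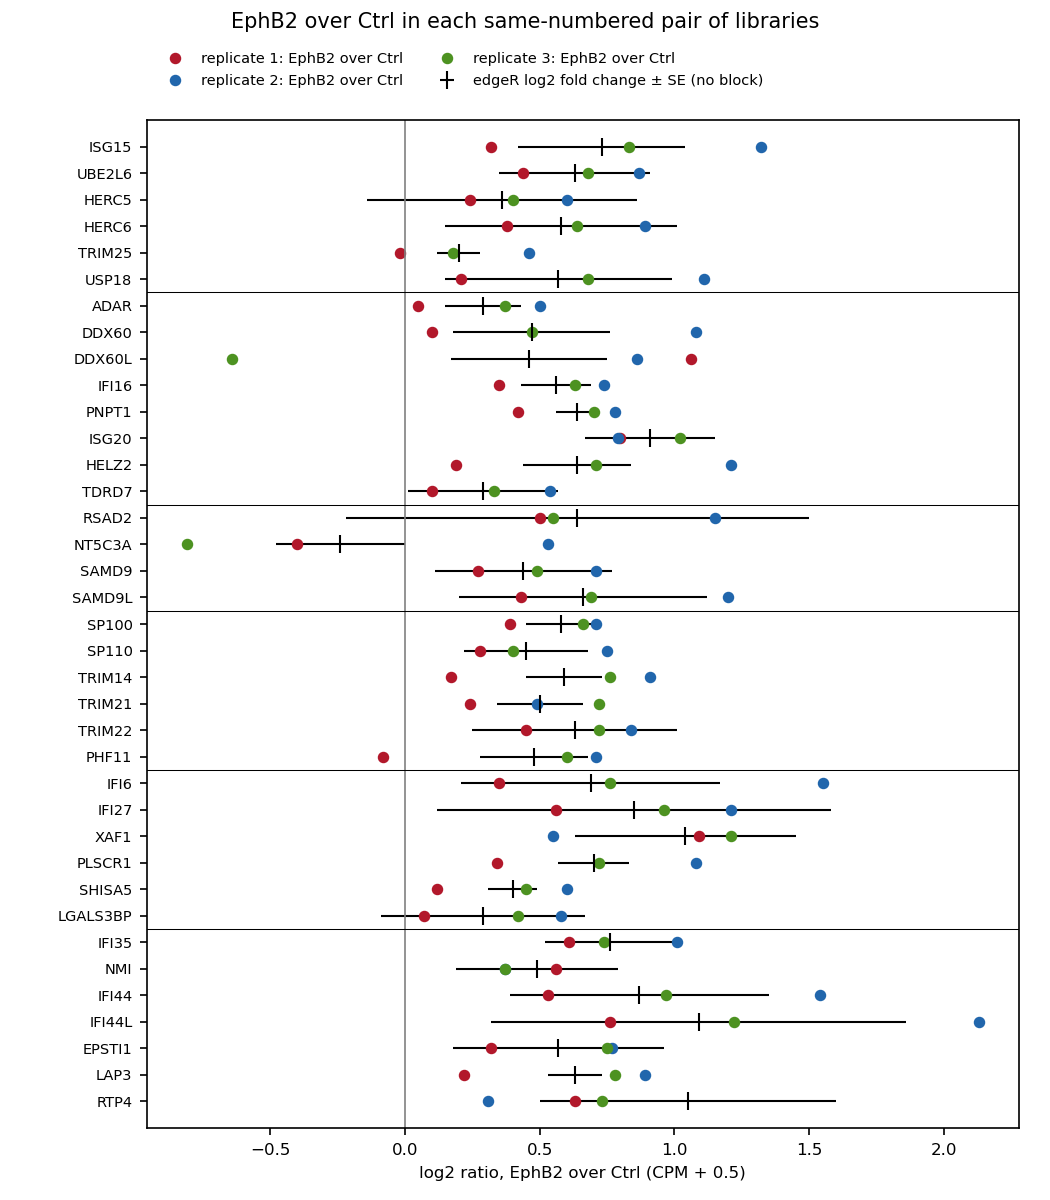
The log2 ratio of EphB2 over Ctrl in each of the 3 same-numbered pairs of libraries (coloured points) and the fitted log2 fold change ± SE from edgeR (black) for 37 members in order of role, CMPK2 being left out for its low counts. Nearly all points lie right of 0, replicate 2 is furthest right for most members, and the SE is wide for members such as RSAD2 and IFI44L and narrow for PNPT1, LAP3 and SHISA5.

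ISG15 conjugation has 6 members, all of them above 0 in EphB2 vs Ctrl (median log2 fold change 0.57), of which none passed without the block and 5 rose with it. ISG15, a ubiquitin-like protein that is attached to other proteins and also secreted (ENSG00000187608, chromosome 1 from 1001138 to 1014540), had 159, 119.7 and 143 CPM in EphB2 replicates 1, 2 and 3, against 127, 47.6 and 80.2 CPM in Ctrl. With the siRNA, ISG15 had 196, 117 and 158 CPM in EphB2 + ephrin-B1 siRNA, against 133, 79.4 and 109 CPM in ephrin-B1 siRNA. The 3 EphB2 libraries overlapped the Ctrl libraries only through Ctrl replicate 1 (log2 fold change 0.73 ± 0.31, adjusted p = 0.635, blocked adjusted p = 0.00148). UBE2L6, the E2 enzyme that carries ISG15, had 152, 96.4 and 125 CPM in EphB2 replicates 1, 2 and 3, against 112, 52.6 and 77.8 CPM in Ctrl. With the siRNA, UBE2L6 had 169, 107 and 136 CPM in EphB2 + ephrin-B1 siRNA, against 129, 77.7 and 101 CPM in ephrin-B1 siRNA. In each replicate number the EphB2 library was above its Ctrl partner (log2 ratios 0.44, 0.87 and 0.68), and UBE2L6 kept a blocked adjusted p of 9.89e-05 with all replicates and 0.0200 without replicate 3. TRIM25, a ubiquitin and ISG15 ligase that modifies the RNA sensor RIG-I, had 177, 199.9 and 182 CPM in EphB2 replicates 1, 2 and 3, against 180.4, 145 and 160.0 CPM in Ctrl. With the siRNA, TRIM25 had 198, 205 and 197 CPM in EphB2 + ephrin-B1 siRNA, against 167, 172 and 159.8 CPM in ephrin-B1 siRNA. TRIM25 showed the smallest difference of the 6 (0.20 ± 0.08, adjusted p = 0.609) and was the 1 that did not pass with the block either (blocked adjusted p = 0.103). Part of it overlaps DGKE on the opposite strand. HERC5, the main ISG15 ligase in human cells, its relative HERC6, and USP18, which takes ISG15 off and dampens signalling at the interferon receptor, had log2 fold changes of 0.36 ± 0.50, 0.58 ± 0.43 and 0.57 ± 0.42, with blocked adjusted p of 0.00670, 0.000493 and 0.00722.

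Sensing, editing and decay of nucleic acids has 8 members, all with a positive log2 fold change (median 0.51), of which PNPT1 rose without the block and 6 rose with it. PNPT1, a mitochondrial polynucleotide phosphorylase that degrades RNA from its 3′ end (ENSG00000138035, chromosome 2 from 55634061 to 55693863), had 75.1, 96.4 and 86.1 CPM in EphB2 replicates 1, 2 and 3, against 55.9, 56.1 and 52.9 CPM in Ctrl. The groups did not overlap, and its Ctrl libraries were within a few CPM of each other. Its log2 fold change was 0.64 ± 0.08 (edgeR adjusted p = 0.0375, blocked 7.78e-05), a fold of 1.56. When 1 library or 1 replicate number was left out, the value stayed between 0.55 and 0.74. It passed in 1 of 15 such edgeR fits (adjusted p = 0.0126 to 1.00), so the edgeR call without the block is not a firm one. DESeq2, run on all 12 libraries without a block, gave PNPT1 an adjusted p of 2.49e-08. With the siRNA, PNPT1 had 82.8, 87.7 and 79.4 CPM in EphB2 + ephrin-B1 siRNA, against 61.8, 61.9 and 58.5 CPM in ephrin-B1 siRNA. IFI16, a sensor of DNA in the nucleus and cytosol (ENSG00000163565, chromosome 1 from 158999968 to 159055155), had 126, 107 and 115 CPM in EphB2 replicates 1, 2 and 3, against 98.7, 64.0 and 73.7 CPM in Ctrl. With the siRNA, IFI16 had 137, 140.4 and 138 CPM in EphB2 + ephrin-B1 siRNA, against 119, 100.2 and 111 CPM in ephrin-B1 siRNA. The EphB2 libraries lay above every Ctrl library. In edgeR the difference passed with the block only (log2 fold change 0.56 ± 0.13, adjusted p = 0.271, blocked adjusted p = 0.00159). In DESeq2 it passed without a block (DESeq2 adjusted p = 0.0233). ISG20, a 3′ to 5′ exonuclease that acts on single-stranded RNA, had 23.0, 14.5 and 20.2 CPM in EphB2 replicates 1, 2 and 3, against 13.0, 8.16 and 9.72 CPM in Ctrl. With the siRNA, ISG20 had 21.1, 18.2 and 20.5 CPM in EphB2 + ephrin-B1 siRNA, against 12.9, 6.84 and 9.95 CPM in ephrin-B1 siRNA. All 3 EphB2 libraries were above all 3 Ctrl libraries, by 0.91 ± 0.24 on the log2 scale (adjusted p = 0.323, blocked 0.000476). HELZ2, a helicase known as a nuclear co-activator, had 0.64 ± 0.20 (blocked adjusted p = 0.00553) and groups that did not overlap either. ADAR, which converts adenosine to inosine in double-stranded RNA, and DDX60, a helicase linked to RIG-I-like sensing, had 0.29 ± 0.14 and 0.47 ± 0.29 (blocked adjusted p = 0.0133 and 0.0178). TDRD7, a tudor-domain protein of RNA granules, had 0.29 ± 0.28 and DDX60L, the neighbour and relative of DDX60, 0.46 ± 0.29, and neither passed with the block (0.0585 and 0.392).

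Among 5 effectors linked to nucleotides and translation, none rose without the block and 3 rose with it. RSAD2, or viperin, turns CTP into a chain terminator of viral RNA synthesis (ENSG00000134321, chromosome 2 from 6865557 to 6898239). RSAD2 had 17.8, 3.48 and 8.40 CPM in EphB2 replicates 1, 2 and 3, against 12.4, 1.29 and 5.59 CPM in Ctrl. With the siRNA, RSAD2 had 12.1, 2.11 and 8.72 CPM in EphB2 + ephrin-B1 siRNA, against 8.52, 1.40 and 3.70 CPM in ephrin-B1 siRNA. The spread between replicate numbers was larger than the difference between groups, and each EphB2 library was above its own Ctrl partner (log2 ratios 0.50, 1.15 and 0.55). Without the block RSAD2 had log2 fold change 0.64 ± 0.86, adjusted p = 0.949, blocked adjusted p = 0.0278. CMPK2, a mitochondrial kinase for CMP and UMP that lies head to head with RSAD2, had 2, 0 and 0 estimated counts in EphB2 and 1, 0 and 2 in Ctrl. With the siRNA it had 6, 0 and 0 estimated counts in EphB2 + ephrin-B1 siRNA and 2, 0 and 4 in ephrin-B1 siRNA, too few for a fold. RSAD2 had 311, 55 and 172 estimated counts in the same EphB2 libraries and 166, 25 and 107 in Ctrl. SAMD9 and SAMD9L, neighbours that restrict poxviruses and hold back translation, were, like ISG15 and UBE2L6, highest in replicate 1 and lowest in replicate 2 of each group. SAMD9 had 189, 99.3 and 139 CPM in EphB2 replicates 1, 2 and 3, against 156, 60.4 and 98.6 CPM in Ctrl. With the siRNA, SAMD9 had 217, 148 and 187 CPM in EphB2 + ephrin-B1 siRNA, against 184, 105 and 144 CPM in ephrin-B1 siRNA. SAMD9L had 100.1, 45.6 and 67.6 CPM in EphB2 replicates 1, 2 and 3, against 74.4, 19.6 and 41.5 CPM in Ctrl. With the siRNA, SAMD9L had 108, 57.2 and 83.3 CPM in EphB2 + ephrin-B1 siRNA, against 78.2, 34.9 and 49.1 CPM in ephrin-B1 siRNA. Both were higher in EphB2 in all 3 same-numbered pairs, and both passed with the block only (0.44 ± 0.33 with blocked adjusted p = 0.0121, and 0.66 ± 0.46 with 0.00354). NT5C3A, a pyrimidine nucleotidase, had 6.29, 8.72 and 5.13 CPM in EphB2 replicates 1, 2 and 3, against 8.46, 5.89 and 9.36 CPM in Ctrl. With the siRNA, NT5C3A had 10.8, 7.72 and 8.48 CPM in EphB2 + ephrin-B1 siRNA, against 6.78, 6.78 and 9.52 CPM in ephrin-B1 siRNA. Its EphB2 library was lower than its Ctrl partner in replicates 1 and 3 and higher in replicate 2, and it passed in neither fit (-0.24 ± 0.24, adjusted p = 0.917, blocked 0.652).

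Among 6 members of nuclear bodies and the TRIM family, all had positive log2 fold changes, none rose without the block and 5 rose with it. SP100, a core protein of PML nuclear bodies (ENSG00000067066, chromosome 2 from 230415942 to 230545606), had 194, 161 and 185 CPM in EphB2 replicates 1, 2 and 3, against 148, 97.9 and 117 CPM in Ctrl. With the siRNA, SP100 had 196, 174 and 183 CPM in EphB2 + ephrin-B1 siRNA, against 153, 127 and 145 CPM in ephrin-B1 siRNA. TRIM14, an adaptor of the mitochondrial antiviral protein MAVS (ENSG00000106785, chromosome 9 from 98069275 to 98119222, in part opposite NANS), had 168, 178 and 182 CPM in EphB2 replicates 1, 2 and 3, against 149, 94.3 and 107 CPM in Ctrl. With the siRNA, TRIM14 had 206, 176 and 201 CPM in EphB2 + ephrin-B1 siRNA, against 167, 143 and 153 CPM in ephrin-B1 siRNA. For both genes the EphB2 libraries lay above every Ctrl library (0.58 ± 0.13, adjusted p = 0.271, blocked 0.000140 for SP100, and 0.59 ± 0.14, adjusted p = 0.271, blocked 0.00208 for TRIM14). TRIM21, a cytosolic antibody receptor and ubiquitin ligase, had 26.4, 32.2 and 36.2 CPM in EphB2 replicates 1, 2 and 3, against 22.3, 22.7 and 21.7 CPM in Ctrl. With the siRNA, TRIM21 had 25.3, 36.0 and 30.3 CPM in EphB2 + ephrin-B1 siRNA, against 19.4, 26.1 and 25.0 CPM in ephrin-B1 siRNA. TRIM21 ran against the common order of the experiments, with replicate 1 the lowest in both siRNA groups, and still had non-overlapping EphB2 and Ctrl libraries (0.50 ± 0.16, adjusted p = 0.426, blocked 0.00694). SP110, a relative of SP100, and TRIM22, a ubiquitin ligase that restricts viral transcription, rose with the block (0.45 ± 0.23 and 0.63 ± 0.38, blocked adjusted p = 0.00890 and 0.000839), and PHF11, a PHD-finger protein, did not (0.48 ± 0.20, blocked 0.182).

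All 6 members that act at mitochondria, membranes or in cell death had positive log2 fold changes, with none called without the block and all 6 higher with it. IFI6, an inhibitor of apoptosis that also limits flaviviruses (ENSG00000126709, chromosome 1 from 27666064 to 27672212), had 799.8, 401 and 605 CPM in EphB2 replicates 1, 2 and 3, against 629, 136 and 357 CPM in Ctrl. With the siRNA, IFI6 had 894, 438 and 687 CPM in EphB2 + ephrin-B1 siRNA, against 722, 327 and 521 CPM in ephrin-B1 siRNA. Ctrl replicate 2 was far below the other 11 libraries, and the log2 fold change of 0.69 ± 0.48 became 0.29 without it and 1.29 without Ctrl replicate 1 (adjusted p = 0.826, blocked 0.00722 with all libraries). XAF1, a pro-apoptotic antagonist of XIAP, had 34.6, 13.9 and 23.5 CPM in EphB2 replicates 1, 2 and 3, against 16.0, 9.35 and 9.88 CPM in Ctrl. With the siRNA, XAF1 had 38.7, 15.5 and 27.9 CPM in EphB2 + ephrin-B1 siRNA, against 18.4, 8.71 and 11.9 CPM in ephrin-B1 siRNA. XAF1 had one of the larger log2 fold changes (1.04 ± 0.41), passed with the block (0.000292), and overlapped Ctrl only through EphB2 replicate 2. PLSCR1, a phospholipid scramblase that also enters the nucleus (ENSG00000188313, chromosome 3 from 146515180 to 146544856), had 147, 156 and 146 CPM in EphB2 replicates 1, 2 and 3, against 116, 73.2 and 88.6 CPM in Ctrl. With the siRNA, PLSCR1 had 160.4, 153 and 146 CPM in EphB2 + ephrin-B1 siRNA, against 119, 102 and 109 CPM in ephrin-B1 siRNA. SHISA5, an endoplasmic reticulum protein that p53 induces (ENSG00000164054, chromosome 3 from 48467798 to 48504826), had 179, 220.2 and 205 CPM in EphB2 replicates 1, 2 and 3, against 165, 145 and 149 CPM in Ctrl. With the siRNA, SHISA5 had 199, 221 and 215 CPM in EphB2 + ephrin-B1 siRNA, against 181, 208 and 204 CPM in ephrin-B1 siRNA. For PLSCR1 and SHISA5 the EphB2 libraries were above every Ctrl library (0.70 ± 0.13, adjusted p = 0.135, and 0.40 ± 0.09, adjusted p = 0.240), and both passed with the block (0.000727 and 0.00406). IFI27, a mitochondrial protein, and LGALS3BP had 0.85 ± 0.73 and 0.29 ± 0.38 (blocked adjusted p = 0.00306 and 0.0185).

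The other 7 members all had positive log2 fold changes in EphB2 vs Ctrl, with none called without the block and 6 higher with it. LAP3, a leucine aminopeptidase that trims peptides (ENSG00000002549, chromosome 4 from 17577198 to 17607972), had 76.8, 94.0 and 87.9 CPM in EphB2 replicates 1, 2 and 3, against 66.1, 50.7 and 50.9 CPM in Ctrl. With the siRNA, LAP3 had 91.0, 96.5 and 93.9 CPM in EphB2 + ephrin-B1 siRNA, against 66.1, 68.7 and 67.2 CPM in ephrin-B1 siRNA. IFI35, which binds NMI and is released as a danger signal, had 87.3, 63.8 and 79.8 CPM in EphB2 replicates 1, 2 and 3, against 57.1, 31.5 and 47.7 CPM in Ctrl. With the siRNA, IFI35 had 119.6, 68.8 and 94.2 CPM in EphB2 + ephrin-B1 siRNA, against 66.2, 44.4 and 56.2 CPM in ephrin-B1 siRNA. Both had EphB2 libraries above every Ctrl library (0.63 ± 0.10, adjusted p = 0.0903, blocked 0.00124 for LAP3, and 0.76 ± 0.24, adjusted p = 0.433, blocked 3.68e-05 for IFI35). IFI44L, which is known to restrain the interferon response (ENSG00000137959, chromosome 1 from 78619902 to 78646145), had 124, 40.0 and 79.1 CPM in EphB2 replicates 1, 2 and 3, against 73.1, 8.78 and 33.8 CPM in Ctrl. With the siRNA, IFI44L had 125, 29.1 and 81.6 CPM in EphB2 + ephrin-B1 siRNA, against 76.8, 14.4 and 45.3 CPM in ephrin-B1 siRNA. EphB2 replicate 2 was lower than Ctrl replicate 1, while inside each experiment EphB2 was 0.76, 2.13 and 1.22 on the log2 scale above Ctrl (log2 fold change 1.09 ± 0.77, adjusted p = 0.827, blocked adjusted p = 0.000534). RTP4, a chaperone of G-protein-coupled receptors, had 25, 8 and 21 estimated counts in EphB2, against 10, 6 and 8 in Ctrl. With the siRNA RTP4 had 41, 10 and 21 estimated counts in EphB2 + ephrin-B1 siRNA, against 16, 7 and 7 in ephrin-B1 siRNA. Its log2 fold change of 1.05 ± 0.55 rests on these few counts and passed in neither fit (adjusted p = 0.726, blocked 0.155). IFI44, EPSTI1 and NMI had 0.87 ± 0.48, 0.57 ± 0.39 and 0.49 ± 0.30 (blocked adjusted p = 0.00124, 0.00247 and 0.0455).

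PNPT1, the 1 member that passed in edgeR without the block in EphB2 vs Ctrl, had a small error more than a large difference. Its log2 fold change, with an SE of 0.08, was about that of RSAD2 and SAMD9L, with SE of 0.86 and 0.46, while TRIM25, with an SE of 0.08, differed by 0.20 only and did not pass. The SE comes from the same 12 libraries as the ratio of replicate 1 over replicate 2, so their relation is built in and is given as a description.

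**Figure D3:**
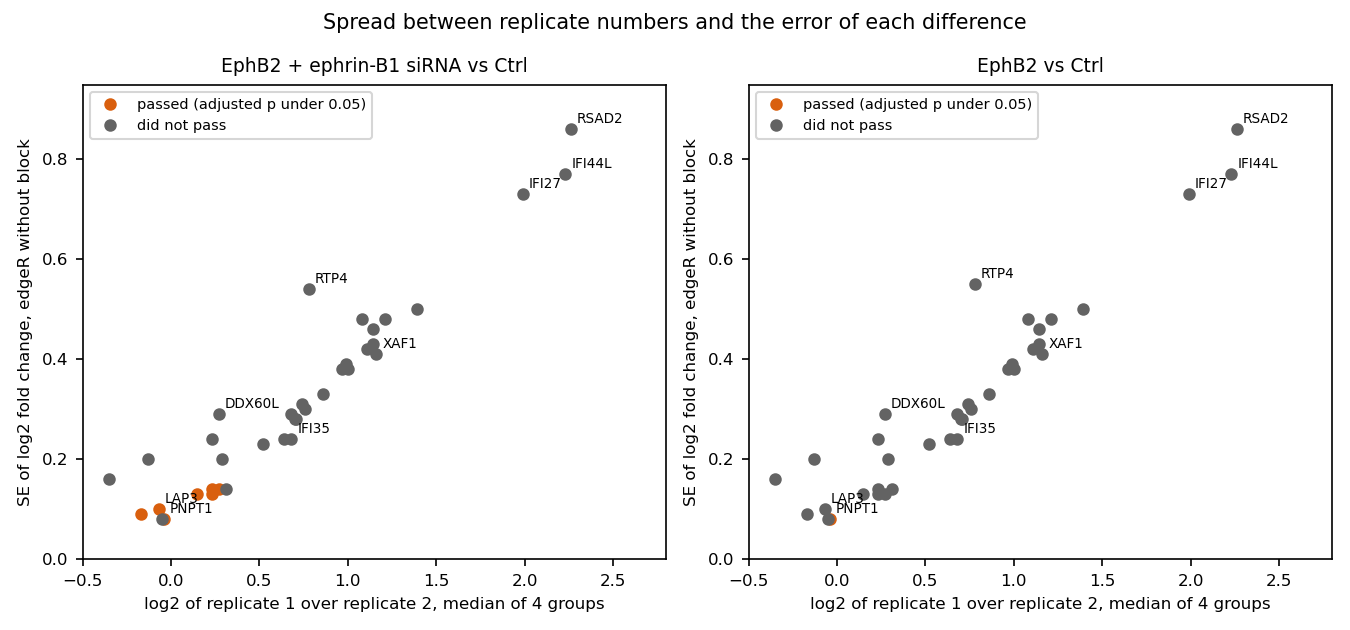
SE of the edgeR log2 fold change without the block (y axis) against the log2 ratio of replicate 1 over replicate 2, median of the 4 groups (x axis), for 37 members in EphB2 + ephrin-B1 siRNA vs Ctrl (left) and EphB2 vs Ctrl (right), with members that passed in orange. The orange members sit at the lower left, with SE of 0.14 or less, and RSAD2, IFI44L and IFI27 at the upper right.

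The remaining comparisons ask whether lowering ephrin-B1 changes the members, and share libraries: all 3 groups that are set against Ctrl are set against the same 3 Ctrl libraries. In EphB2 + ephrin-B1 siRNA vs Ctrl all 38 members had a positive log2 fold change (median 0.74, range 0.19 to 1.41), and in 15 of them the groups did not overlap, against 9.05% of all genes. In edgeR 7 members rose without the block, against 0.736% of all genes, and 33 with it, against 6.06%. The 7 were LAP3 (0.75 ± 0.10, adjusted p = 0.00485), PNPT1 (0.60 ± 0.08, adjusted p = 0.00534), IFI16 (0.81 ± 0.13, adjusted p = 0.0110), PLSCR1 (0.73 ± 0.13, adjusted p = 0.0176), SHISA5 (0.47 ± 0.09, adjusted p = 0.0226), TRIM14 (0.74 ± 0.14, adjusted p = 0.0232) and SP100 (0.61 ± 0.14, adjusted p = 0.0439). The 7 include enzymes of peptide and RNA turnover, a DNA sensor, membrane proteins and proteins of antiviral signalling, and none of the 6 ISG15 conjugation members, RSAD2 or the IFI44 genes. TRIM25 came nearest among those (0.30 ± 0.08, adjusted p = 0.0890, blocked 0.00628). The calls do not order these genes by size of difference. USP18 (1.07 ± 0.42), IFI44L (1.05 ± 0.77), IFI44 (0.96 ± 0.48), ISG15 (0.89 ± 0.31) and HERC6 (0.86 ± 0.43) had larger log2 fold changes than any of the 7, with larger SE. UBE2L6 (0.77 ± 0.28), HERC5 (0.46 ± 0.50), TRIM25 and RSAD2 (0.28 ± 0.86) did not. With the block all 6 conjugation members, IFI44 and IFI44L rose, and RSAD2 did not. No member passed without replicate 2 or without replicate 3. Without replicate 3 the number of all genes called was 0 too, so that count tells nothing about the members. Only LAP3 and PNPT1 rose without Ctrl replicate 3 or without EphB2 + ephrin-B1 siRNA replicate 3. The shares of all genes in these 2 fits and without replicate 2 are not given here. Without Ctrl replicate 2, 4 members rose (0.210% of all genes), and 11 did without Ctrl replicate 1 (0.685%).

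In cells that all had ephrin-B1 siRNA, EphB2-Fc was again followed by higher levels: EphB2 + ephrin-B1 siRNA set against ephrin-B1 siRNA gave a positive log2 fold change in 37 members (median 0.42, range -0.07 to 1.51). In 36 of them the EphB2 + ephrin-B1 siRNA library was higher in all 3 same-numbered pairs (19.9% of all genes), and in 12 the groups did not overlap (7.26% of all genes). None passed in edgeR without the block, against 0.0833% of all genes that rose, although 15 had an unadjusted p under 0.05, against 8.45% of all genes. In DESeq2 4 rose (LAP3, PNPT1, ISG20 and DDX60L), against 0.528% of all genes, none did in limma on TPM, and 27 rose with the block, against 2.82%. PNPT1 (0.46 ± 0.08, adjusted p = 0.0962, blocked 0.000822) and ISG20 (1.01 ± 0.24, adjusted p = 0.195, blocked 0.000143) had some of the smallest p, as in the cells without the siRNA. Here the 3 experiments had like medians, 0.38, 0.46 and 0.45 on the log2 scale in replicates 1, 2 and 3.

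With the siRNA alone the median difference was smaller, which was not tested against that of EphB2-Fc. In ephrin-B1 siRNA vs Ctrl, 33 members had a positive log2 fold change (median 0.26, range -0.96 to 0.76), against 49.4% of all genes. The siRNA library was higher in all 3 same-numbered pairs in 28 members, against 22.0% of all genes. None passed in edgeR without the block, against 0.657% of all genes that rose. At an unadjusted p under 0.05 were 6 members, against 12.1% of all genes, and in DESeq2 2 were higher (IFI16 and SHISA5), against 2.18%, and 1 lower (DDX60L), against 2.49%, with none called in limma on TPM. In 4 members the siRNA libraries lay above all Ctrl libraries, against 9.16% of all genes, so that neither the unadjusted p nor this count stood far from the background. SHISA5 (0.37 ± 0.09, adjusted p = 0.0691, blocked 0.00242) and IFI16 (0.48 ± 0.13, adjusted p = 0.109, blocked 0.00143) had the smallest p without the block and were among those 4. With the block 15 members rose, against 6.51% of all genes, and 1, DDX60L, fell, against 7.06%. The median became 0.04 without Ctrl replicate 2 and 0.60 without Ctrl replicate 1, so the size of this difference turns on those libraries. In cells with EphB2-Fc, EphB2 + ephrin-B1 siRNA vs EphB2 gave a positive log2 fold change in 34 members, against 47.1% of all genes. The median was 0.13 (range -0.37 to 1.24, the upper end from CMPK2 with its few counts). In 24 members the library with the siRNA was higher in all 3 same-numbered pairs, against 19.5% of all genes. No member passed in edgeR without the block, against 0.208% of all genes that rose, none had an unadjusted p under 0.05, against 10.4%, and none rose in DESeq2, against 1.43%, or passed in limma on TPM. With the block 5 rose (IFI35, SP110, HERC6, USP18 and SAMD9), against 4.53%. The siRNA thus lowered no member past the threshold in these fits, apart from DDX60L, with the block and in DESeq2.

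Whether EphB2-Fc acted differently with the siRNA was tested by the interaction. The median interaction over the members was -0.12 on the log2 scale (range -0.32 to 1.05), with 11 of 38 above 0, against 48.1% of all genes. None of the 38 members passed in edgeR without the block, against 0% of all genes, with 2 (DDX60L and SHISA5) at an unadjusted p under 0.05, against 2.31%. No member passed in DESeq2 or with the block either, where 2 and 1 of all 21601 genes passed. The median was -0.40 without Ctrl replicate 1 and 0.15 without Ctrl replicate 2. For ISG15 the interaction was -0.18 ± 0.44, for PNPT1 -0.19 ± 0.12 and for LAP3 -0.15 ± 0.15. With the block the SE for ISG15 was smaller, at -0.25 ± 0.17 (blocked adjusted p = 0.826).

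**Figure D4:**
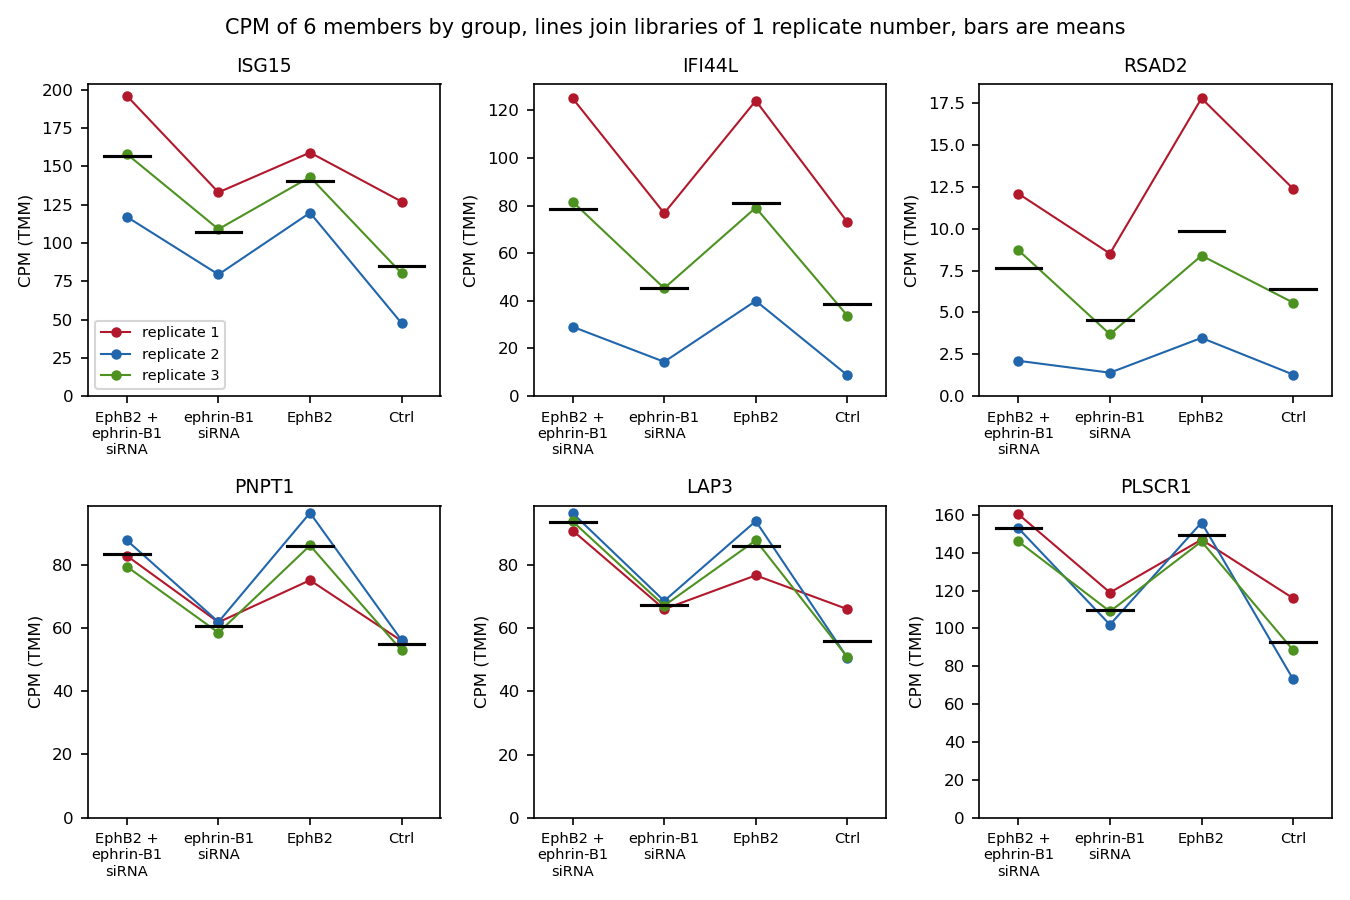
CPM of ISG15, IFI44L, RSAD2, PNPT1, LAP3 and PLSCR1 in the 4 groups, each point a library, lines joining libraries of the same replicate number and black bars marking the mean of 3. The lines of ISG15, IFI44L and RSAD2 run apart with replicate 1 on top, those of PNPT1, LAP3 and PLSCR1 run close together, and in all 6 panels both EphB2-Fc groups have a higher mean than the Ctrl-Fc groups beside them.

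The tables list transcripts, so ADAR can be split into its proteins. The longer form p150 starts from an interferon-driven promoter and the shorter p110 from constitutive ones. Told apart by coding length in the annotation, 1 transcript with 1226 codons stood for p150 and 7 with 931 codons for p110. Transcripts of other coding lengths were in neither form. Among them, ADAR-208, protein coding with 1200 codons, had 1194, 1153 and 1295 estimated counts in EphB2, against 622, 908 and 825 in Ctrl. Its log2 fold change was 0.59 ± 0.17 (blocked adjusted p = 0.538). As CPM over all transcripts, without TMM, p150 had 399.9, 339.8 and 405 in EphB2 replicates 1, 2 and 3, against 426, 197 and 293 in Ctrl, and 545, 425 and 454 in EphB2 + ephrin-B1 siRNA, against 484, 329 and 351 in ephrin-B1 siRNA. The p110 transcripts summed to 222, 163 and 157 CPM in EphB2, against 179, 159 and 153 in Ctrl, and 147, 128 and 137 in EphB2 + ephrin-B1 siRNA, against 174, 161 and 176 in ephrin-B1 siRNA. Replicate 1 over replicate 2 was larger for p150 than for p110 in 3 groups, at 0.36 against 0.20 on the log2 scale in EphB2 + ephrin-B1 siRNA, 0.56 against 0.12 in ephrin-B1 siRNA and 1.11 against 0.17 in Ctrl, and smaller in EphB2, at 0.24 against 0.44. EphB2 over Ctrl was -0.09, 0.79 and 0.47 for p150 and 0.31, 0.03 and 0.03 for p110 in the 3 pairs. No transcript of any member passed in the transcript fit of EphB2 vs Ctrl in edgeR (312 member transcripts tested, 44 at an unadjusted p under 0.05, against 4.19% of all transcripts), and of all transcripts 0% rose. PNPT1 can be split too. Its transcript PNPT1-202, annotated for nonsense-mediated decay and not as protein coding, had 775, 729 and 1012 estimated counts in EphB2, against 418, 504 and 496 in Ctrl (log2 fold change 0.75 ± 0.12). The protein-coding PNPT1-205 had 458, 666 and 684, against 297, 552 and 473 (0.43 ± 0.16). Neither passed with the block either (blocked adjusted p = 0.0632 and 0.630). kallisto divides reads that transcripts share by estimate, so these values are less certain than gene sums.

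DDX60L is a member whose gene sum rests on such a division. One of its transcripts, DDX60L-208, had 1 to 4 estimated counts in 5 libraries and 232 to 488 in the other 7. It had 245, 453 and 1 estimated counts in EphB2 replicates 1, 2 and 3, against 2, 232 and 341 in Ctrl, and 488, 238 and 236 in EphB2 + ephrin-B1 siRNA, against 4, 2 and 2 in ephrin-B1 siRNA. The low libraries thus include all 3 of ephrin-B1 siRNA, 1 of EphB2 and 1 of Ctrl. The other DDX60L transcripts summed to 33.7, 14.5 and 21.9 CPM in EphB2, against 21.9, 11.6 and 17.2 in Ctrl, with replicate 1 highest in both, as for DDX60. With the siRNA they summed to 25.9, 17.3 and 25.8 CPM in EphB2 + ephrin-B1 siRNA, against 19.3, 9.85 and 12.9 in ephrin-B1 siRNA. With all transcripts DDX60L had a log2 fold change of 1.51 ± 0.30 in EphB2 + ephrin-B1 siRNA set against ephrin-B1 siRNA and -0.96 ± 0.30 in ephrin-B1 siRNA vs Ctrl. Without that transcript, a choice made after the data were seen, these were 0.71 ± 0.30 and -0.30 ± 0.30 (edgeR adjusted p = 0.545 and 0.814), and the interaction was 0.27 ± 0.43, against 1.05 ± 0.42 with it. With the block and without that transcript, DDX60L no longer passed as lower in ephrin-B1 siRNA vs Ctrl (blocked adjusted p = 0.0723) and passed as higher in EphB2 vs Ctrl (0.43 ± 0.10, blocked adjusted p = 0.0281). DDX60L overlaps PALLD on the opposite strand, and whether strand was used in the counting is not given in the sources used here.

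**Figure D5:**
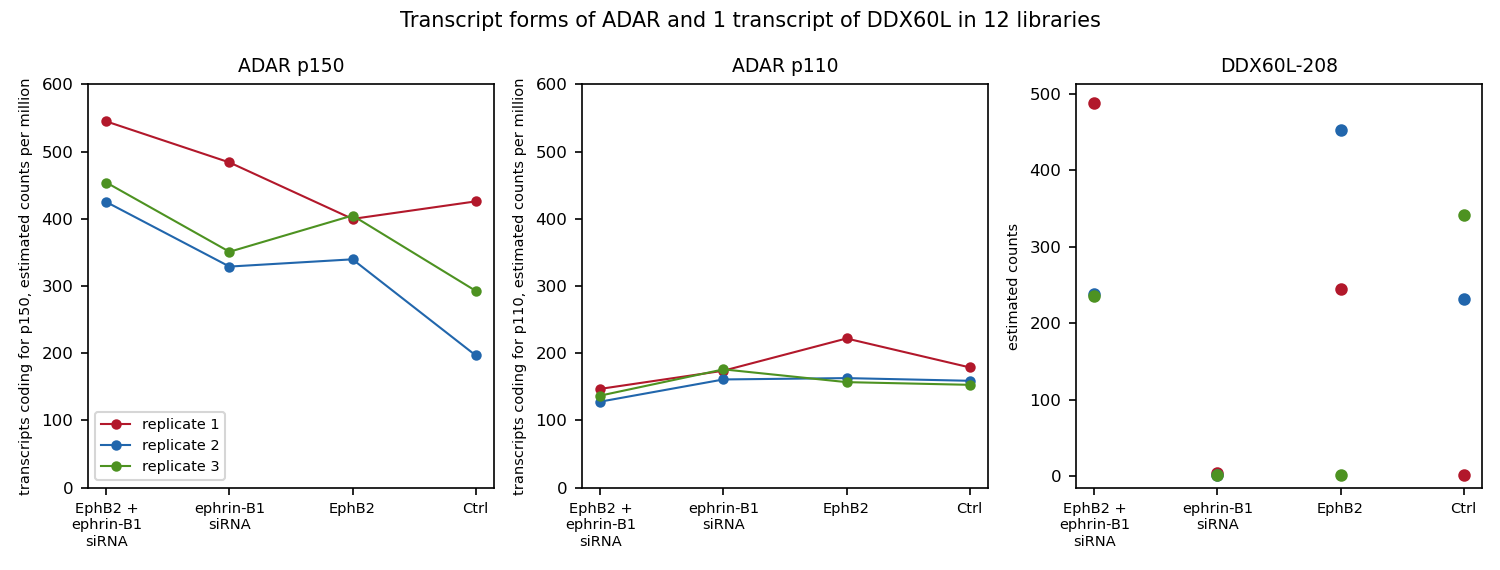
CPM, without TMM, of transcripts that code for ADAR p150 (left) and p110 (middle), and estimated counts of DDX60L-208 (right), by group, each point a library coloured by replicate number. The p150 lines are set apart by replicate number in most groups, the p110 lines lie closer together apart from EphB2 replicate 1, and DDX60L-208 is near 0 in 5 libraries and at 232 or more in 7.

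Neighbouring members were compared side by side. HERC5 and HERC6 had log2 fold changes of 0.36 ± 0.50 and 0.58 ± 0.43 in EphB2 vs Ctrl, SAMD9 and SAMD9L 0.44 ± 0.33 and 0.66 ± 0.46, IFI44 and IFI44L 0.87 ± 0.48 and 1.09 ± 0.77, and SP100 and SP110 0.58 ± 0.13 and 0.45 ± 0.23. In each of these pairs the 2 values lay within 1 SE of the less certain one. The ratio of replicate 1 over replicate 2 told some of them apart: it was 1.21 for IFI44 and 2.23 for IFI44L, and 0.27 for SP100 and 0.52 for SP110 (log2, median of 4 groups). For TRIM21 and TRIM22, which lie on chromosome 11 but are not adjacent, the ratio was -0.35 and 0.97. RSAD2 and CMPK2 differed widely in estimated counts, as given above, and they overlap on opposite strands.

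Other genes of the pathway were listed apart from the 38. Of 10 genes of the type I receptor and its signal, none passed in EphB2 vs Ctrl in edgeR without the block. With the block, STAT2, a transcription factor of that signal, rose by 0.23 ± 0.07 on the log2 scale (blocked adjusted p = 0.0355). Its partner IRF9 rose by 0.37 ± 0.15 (blocked adjusted p = 0.0399), and the receptor chain IFNAR1 fell, at -0.16 ± 0.09 (blocked adjusted p = 0.0478). The siRNA alone, set against Ctrl, was followed by higher STAT2 without the block too (0.48 ± 0.07, edgeR adjusted p = 0.00890). IRF9 was higher there by 0.43 ± 0.15 (blocked adjusted p = 0.00914). Among siRNA-treated cells, the difference with EphB2-Fc was 0.07 ± 0.07 for STAT2 and 0.12 ± 0.14 for IRF9 (blocked adjusted p = 0.584 and 0.569). The interaction passed for neither gene (blocked adjusted p = 0.763 and 0.773). Of 23 genes of the excluded families, all had a positive log2 fold change (median 0.61), none passed without the block and 21 rose with it, against 2.13% of all genes. Of 8 interferon genes, 5 had enough counts to be tested, 7 stayed under 1 TPM in all libraries and none passed in either fit. IFNB1, the gene of interferon beta, had 3, 1 and 3 estimated counts in EphB2, against 2, 1 and 1 in Ctrl, and 10, 3 and 5 in EphB2 + ephrin-B1 siRNA, against 3, 1 and 0 in ephrin-B1 siRNA. IFNL1, the gene of interferon lambda 1, had 14, 0 and 5 estimated counts in EphB2, against 4, 0 and 7 in Ctrl, and 14, 2 and 8 in EphB2 + ephrin-B1 siRNA, against 8, 0 and 5 in ephrin-B1 siRNA. At these counts no difference in interferon transcripts could be told, and the RNA was taken at a single time, 24 h after EphB2-Fc.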

How the data were processed

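RNA was sequenced from 12 HMC3 libraries. As deposited, the authors gave per library a kallisto table of estimated counts, TPM and effective lengths per transcript (GRCh38; the kallisto version is not given in the sources used here). TPM, by the authors, are scaled within each library, so a shift of all genes moves them. Of 188753 transcripts, 167067 (88.5%) were paired with GENCODE 44 genes and 21686 were left out, and gene sums were rounded. Genes with at least 10 estimated counts over the 12 libraries were tested in edgeR 4.0.16 (quasi-likelihood, TMM, all 4 groups in 1 fit, no block, Benjamini-Hochberg threshold 0.05) in R 4.3.3, a script checked on simulated data. Alternatives used DESeq2 1.42.0, limma 3.58.1 on log2(TPM + 1), an offset for transcript length, other filters, only the groups compared, and each library left out. Ratios of libraries used log2(CPM + 0.5). Tables and figures were made with Python 3.11.15.

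Experiment numbers in the submitted names were taken as the pairing of libraries across groups. Pairwise r of the deviations from group means lay between 0.3 and 0.39 in replicate 1 and between 0.34 and 0.38 in replicate 2. In replicate 3 it lay between 0.011 and 0.042. Where replicate 3 lies between the others its deviations are small, which can lower r whether or not the pairing is right. The pairing of replicate 3 thus stays less certain, and r cannot decide it. The biological coefficient of variation was 0.182 without and 0.0649 with the block. The p-values measure the spread between these libraries.

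The members and gene lists were chosen with earlier results of these data known. Values in every library are given for the 3 members of each role with the smallest p in EphB2 vs Ctrl, for members past the threshold in any comparison, for the 2 largest and 2 smallest ratios of replicate 1 over replicate 2, and for the highest and lowest TPM. The result of 1 gene of the pathway lists is not reported here.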

Additional observations from a re-analysis of the deposited data

How the results depend on the processing

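The number of members called turned on the test more than the size of the differences did. In EphB2 vs Ctrl it was 1 in the fit reported, 8 with DESeq2, 0 with limma on TPM, 0 with the length offset, 0 with only the groups compared, 31 with the replicate block, and 7 with the block without replicate 3. Of all 21601 genes, 8 were called in the fit reported, 205 with DESeq2, 0 with limma or the offset and 1153 with the block. With the block without replicate 3, 140 of 20658 genes were called. In ephrin-B1 siRNA vs Ctrl the member count was 0, 3 with DESeq2, 16 with the block and 1 with the block without replicate 3. All genes called were 391, 1008 with DESeq2, 2932 with the block and 828 of 20658 with the block without replicate 3. The last member count was thus no higher than this background. In EphB2 + ephrin-B1 siRNA vs Ctrl the member count was 7, 13 with DESeq2, 0 with limma, 1 with only the groups compared, 33 with the block and 26 with the block without replicate 3. All genes called were 434, 1145 with DESeq2, 4 with limma, 3261 with the block and 1166 of 20658 with the block without replicate 3. With EphB2 + ephrin-B1 siRNA set against ephrin-B1 siRNA the member count was 0, 4 with DESeq2, 27 with the block and 5 with the block without replicate 3. All genes called were 25, 285 with DESeq2, 1495 with the block and 169 of 20658 with the block without replicate 3. In EphB2 + ephrin-B1 siRNA vs EphB2 the member count was 0, and 5 with the block, where all genes called were 133, and 2146 with the block.

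With a library or replicate number left out, members called ranged from 0 (without Ctrl replicate 2, among others) to 4 (without Ctrl replicate 1) in EphB2 vs Ctrl, from 0 to 4 in ephrin-B1 siRNA vs Ctrl, from 0 (without replicate 2 and without replicate 3) to 11 in EphB2 + ephrin-B1 siRNA vs Ctrl, and 0 or 1 with EphB2 + ephrin-B1 siRNA set against ephrin-B1 siRNA. All genes called ranged from 0 to 15, from 0 to 407, from 0 to 450 and from 0 to 27 in the same comparisons. The median log2 fold changes ranged from 0.37 to 0.85, from 0.04 to 0.60, from 0.54 to 1.04, and from 0.29 to 0.60 in the same comparisons, with EphB2 + ephrin-B1 siRNA vs EphB2 at 0.00 to 0.36 and the interaction at -0.40 to 0.15. RSAD2 ranged from -0.08 (without EphB2 replicate 1) to 1.52, and NT5C3A from -0.66 to 0.06 (without replicate 3), with 0.07 with the block without replicate 3.

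Medians with limma on TPM were 0.48 in ephrin-B1 siRNA vs Ctrl, 0.10 in EphB2 + ephrin-B1 siRNA set against ephrin-B1 siRNA, 0.11 in EphB2 + ephrin-B1 siRNA vs EphB2 and -0.35 for the interaction, where all genes had medians of 0.12, -0.20, -0.03 and -0.17. With the length offset EphB2 + ephrin-B1 siRNA vs EphB2 had 0.17. With the block without replicate 3 the medians were 0.47 in EphB2 + ephrin-B1 siRNA set against ephrin-B1 siRNA and 0.16 in EphB2 + ephrin-B1 siRNA vs EphB2. With TPM in place of CPM, EphB2 + ephrin-B1 siRNA over ephrin-B1 siRNA was -0.18, 0.35 and 0.23 in replicates 1, 2 and 3, where all genes shifted by -0.45, -0.10 and -0.15, so that relative to all genes the members stood 0.28, 0.45 and 0.38 higher. EphB2 over Ctrl in replicate 2 was 0.53, with all genes at -0.21, and replicate 1 over replicate 2 was 0.99 in EphB2, 1.14 in ephrin-B1 siRNA and 1.15 in Ctrl. The motif with 1 to 3 bases between was in 62.7% of member windows and 8.68% of all windows. The causes of these changes were not tested. CMPK2 and RTP4 are limited by their counts.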
